A study of Mus musculus with 6 samples.

Results

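Mitotic kinases are the enzymes that drive a cell through division by phosphorylating other proteins, and 10 of their genes were examined here: *Aurka*, *Aurkb*, *Plk1*, *Plk4*, *Bub1*, *Bub1b*, *Ttk*, *Nek2*, *Cdk1* and *Mastl*. They were taken by gene symbol, and all 10 were found among the 24346 symbols of the expression tables. The samples were 3 of parental CT26.mMR1 cells, titled CT26_cl9, and 3 of the mutant line M8, titled CT26_cl9_M8, measured by RNA sequencing. The labels do not explain cl9, which both lines share. CT26 is a mouse colorectal tumor line, and both lines carried a retrovirus that overexpresses mouse MR1, a surface molecule that presents small metabolites to mucosal-associated invariant T (MAIT) cells. M8 was derived from the parental cells by treatment with *N*-ethyl-*N*-nitrosourea (ENU), a chemical mutagen, and was chosen because it stimulated a MAIT cell reporter line more strongly and carried more MR1 at its surface. It is 1 clone, so what the mutagen changed cannot be told apart from what sets any clone apart from the cells it was derived from. The study describes the samples of a line as biological replicates. Neither it nor the labels say that they came from separate cultures, so the p-values below measure only the spread between these samples.

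Entry into mitosis is set by *Cdk1*, the cyclin-dependent kinase that works with cyclins A and B, and the protein of *Mastl* (Greatwall) shields Cdk1 phosphorylations by restraining the phosphatase PP2A. *Aurka*, *Plk1* and *Nek2* encode kinases that act at the centrosomes and the spindle, and *Plk4* encodes the kinase that starts the duplication of centrioles. *Aurkb* encodes the kinase of the chromosomal passenger complex, whereas the products of *Bub1*, *Bub1b* and *Ttk* (Mps1) belong to the spindle assembly checkpoint, which holds back anaphase until chromosomes are attached. BubR1, the product of *Bub1b*, is counted with the kinases by its kinase domain. Most of these genes are transcribed late in the cell cycle. In cell lines that divide all the time, such as CT26, their mRNAs are therefore present, and their level in a culture depends on the share of cells in G2 and mitosis as well as on the amount per cell. In bulk RNA these cannot be told apart.

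The 10 genes lie on 7 mouse chromosomes (GENCODE M21, GRCm38, the same build as the mm10 used for the deposited values). *Aurka* is at chr2:172356190-172370535 (minus strand), *Bub1* at chr2:127801122-127831865 (minus), *Bub1b* at chr2:118598211-118641591 (plus) and *Mastl* at chr2:23115606-23156024 (minus). *Aurkb* is at chr11:69045647-69051664 (plus), *Plk1* at chr7:122159439-122169873 (plus), *Plk4* at chr3:40800019-40816883 (plus) and *Ttk* at chr9:83834689-83872389 (plus). *Nek2* is at chr1:191821444-191833050 (plus) and *Cdk1* at chr10:69335146-69352938 (minus). Each value is for a whole gene, summed over its transcripts. *Plk1* and *Plk4* have processed pseudogenes (*Plk-ps1* and *Gm9742*) that match 1813 and 1410 bases of their transcripts at 93.5% and 94.1% identity, so that reads could be placed at either copy, and neither pseudogene is among the symbols analysed here. Bases 5412 to 5590 of the longest coding *Mastl* transcript held matches to transcripts of 426 other genes, at up to 97.5% identity. Any part of these matches in the *Mastl* values was not tested. *Aurka* overlaps *Cstf1* by 242 bases and *Mastl* overlaps *Yme1l1* by 583 bases on the opposite strand (RefSeq gene spans), and the strand setting of the authors' quantification is not given in the sources used here. Exons of the antisense gene *Gm38037* share 298 bases with *Nek2*, and those of *Gm44985* share 156 bases with *Plk1*. The pseudogene *Gm20585* lies within the RefSeq span of *Nek2*, over 698 bases.

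Promoters of genes expressed in G2 and mitosis often carry a cell cycle genes homology region (CHR), the element through which the DREAM complex and the MYBL2 and FOXM1 activators are recruited, near CCAAT boxes, which bind NF-Y. Windows from 250 bases before to 50 bases after the annotated start were read from RefSeq (GRCm38.p6) for 9 of the 10 genes. No window was matched for *Aurkb*. The CHR letters TTTGAA, searched on both strands (TTCAAA on the other), were found in 5 of the 9 windows, those of *Aurka*, *Plk1*, *Bub1b*, *Ttk* and *Cdk1*, and in 17.9% of all 32851 RefSeq windows of that length. The CCAAT letters (ATTGG on the other strand) were found in 8 of the 9, all but *Plk4*, and in 37.4% of all windows. At least 2 CCAAT matches were found in 5 of the 9 windows and in 11.7% of all. The E2F letters TTCCCGCC (GGCGGGAA on the other strand) were in 0 of the 9 and in 2.19% of all. In the 10401 windows of genes tested for changes below, the shares were 11.8% for CHR, 38.3% for CCAAT and 4.21% for E2F letters. Matches of different motifs did not overlap. A match is a description of the letters in the window and not a binding site. Below are the 250 bases before the start for 2 genes that hold both motifs and rose in M8 (*Plk1*, *Cdk1*), for *Plk4*, which rose and holds neither, and for *Mastl*, which holds a CCAAT match and was not called. All are 5′ to 3′ on the strand of the gene, with CHR and CCAAT matches in capitals. They lie at chr7:122159185-122159434 (plus strand), chr10:69352913-69353162 (minus), chr3:40799701-40799950 (plus) and chr2:23156025-23156274 (minus), in that order. They precede the RefSeq start used for the window. The last 26 bases for *Cdk1* are within the gene as GENCODE annotates it.
Plk1: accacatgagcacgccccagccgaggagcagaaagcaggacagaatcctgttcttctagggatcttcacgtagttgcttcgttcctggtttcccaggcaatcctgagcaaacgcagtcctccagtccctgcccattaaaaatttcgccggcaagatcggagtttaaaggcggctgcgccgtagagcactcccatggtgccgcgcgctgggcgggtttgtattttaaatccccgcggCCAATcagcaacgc
Cdk1: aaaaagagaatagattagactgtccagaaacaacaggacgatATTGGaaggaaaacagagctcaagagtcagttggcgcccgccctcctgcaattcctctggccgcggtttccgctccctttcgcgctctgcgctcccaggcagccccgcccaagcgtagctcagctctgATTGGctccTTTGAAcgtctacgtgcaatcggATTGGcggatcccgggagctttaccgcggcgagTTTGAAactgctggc
Plk4: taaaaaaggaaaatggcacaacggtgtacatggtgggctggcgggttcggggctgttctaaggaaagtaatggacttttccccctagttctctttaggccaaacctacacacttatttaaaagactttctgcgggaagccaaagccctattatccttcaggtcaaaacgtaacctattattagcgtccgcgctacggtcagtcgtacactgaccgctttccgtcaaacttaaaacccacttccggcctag
Mastl: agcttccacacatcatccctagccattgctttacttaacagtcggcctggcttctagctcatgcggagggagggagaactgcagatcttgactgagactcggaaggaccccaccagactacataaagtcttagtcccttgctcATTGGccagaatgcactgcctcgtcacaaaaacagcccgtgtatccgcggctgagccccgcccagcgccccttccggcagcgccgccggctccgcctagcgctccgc

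In *Aurka*, *Plk1*, *Bub1b* and *Ttk* the CHR letters began 33, 31, 41 and 8 bases after the RefSeq start, and in *Ttk* they were on the other strand. In *Cdk1* they began 71 and 15 bases before it. The stretches around the 4 downstream matches are at chr2:172370523-172370548 (minus strand), chr7:122159455-122159480 (plus), chr2:118598241-118598260 (plus) and chr9:83834686-83834711 (plus), with the match in capitals.
Aurka: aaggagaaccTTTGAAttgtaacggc
Plk1: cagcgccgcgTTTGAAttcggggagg
Bub1b: agacgttaaaTTTGAAactt
Ttk: gcggggaaatTTCAAAcgtgtttccg
Of the 5 windows with CHR letters, 4 were those of *Plk1*, *Aurka*, *Cdk1* and *Bub1b*, which are among the 5 largest changes described below, and the other was that of *Ttk*, with a small change. *Nek2*, with the third largest change among the 10, held CCAAT at 26 bases before and 8 bases after the start and no TTTGAA. Whether the motifs have a part in the changes was not tested.

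**Figure D1:**
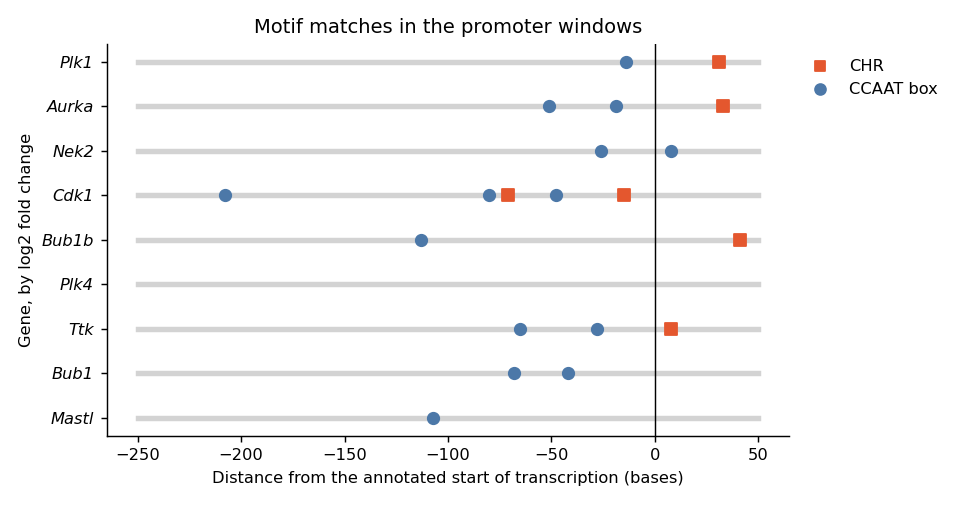
Motif matches in the RefSeq windows of 9 mitotic kinase genes. The horizontal axis is the distance in bases from the annotated start of transcription, squares are CHR letters, circles are CCAAT letters, each drawn at the first base of the match, and genes are ordered from the largest log2 fold change in M8 (top) to the smallest (bottom). CHR letters are in 5 of the 9 windows and CCAAT letters in 8 of the 9.

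Expression was measured as FPKM, fragments relative to transcript length and to the mapped reads of the library, which is on a per-length scale and can be compared between genes. Changes were tested with limma on log2(FPKM + 1) over the 10597 genes with a mean of at least 1 FPKM, all 10 kinases included, and a gene was called at a Benjamini-Hochberg adjusted p below 0.1. Of the 10 kinase genes, 9 were called higher in M8 and 0 lower, against 21.2% of all genes tested called higher and 16.5% called lower. No kinase gene was lower at an unadjusted limma p below 0.05 either. The 10 were chosen with earlier results of these data known, so these counts are a description and not a test. In the same 9 genes the lowest M8 sample exceeded the highest parental sample, which held for 24.8% of all genes tested, and the reverse, seen in 20.4% of them, held for 0 of the 10. Over all genes tested 2250 were called higher and 1745 lower, a split that turned to 1470 and 2769 with upper-quartile scaling and to 1658 and 2209 on the TPM scale. The median log2 fold change of the 10 was 0.31, beside 0.01 over all genes tested. Their summed level was 299.8, 307.9 and 294.1 FPKM in parental replicates 1 to 3 and 408.6, 408.9 and 401.2 FPKM in those of M8, a ratio of means of 1.35. The changes were of moderate size. Only *Plk1* and *Aurka* were at least 1.5-fold higher on the log2(FPKM + 1) scale, and 0.396% of the genes tested were called higher at that size.

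**Figure D2:**
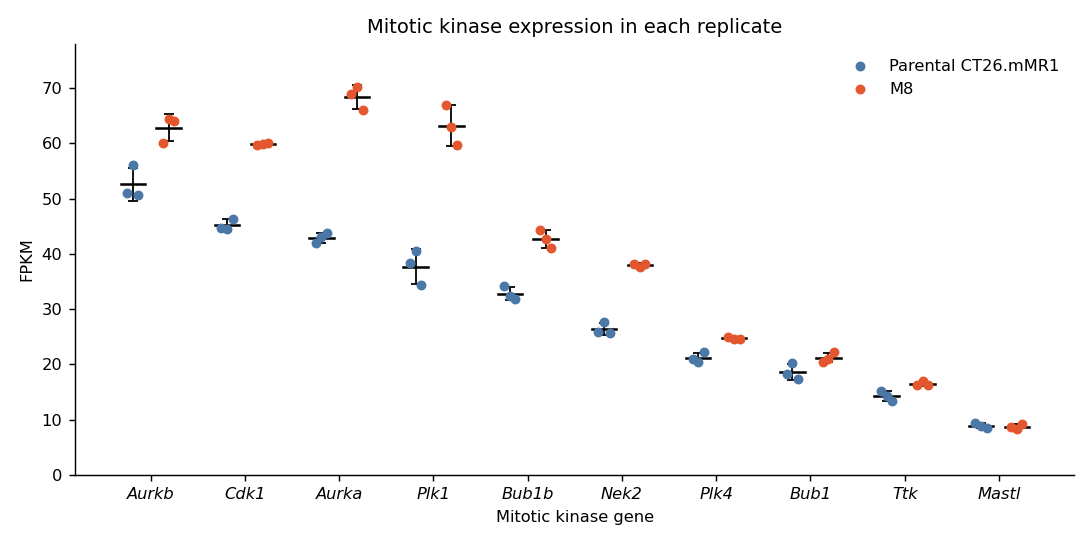
Expression of the 10 mitotic kinase genes in each replicate. The vertical axis is FPKM, points are single samples of parental CT26.mMR1 (blue) and M8 (red), and bars are the mean and SD of 3 samples. The points of M8 lie above those of the parental line in every gene but *Mastl*, where they overlap.

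*Cdk1*, the kinase that triggers mitosis, was measured at 44.7, 44.5 and 46.4 FPKM in parental replicates 1, 2 and 3 and at 59.7, 59.9 and 60.1 FPKM in M8. The M8 samples were nearly identical to each other and 13.3 FPKM above the highest parental sample. Their coefficient of variation was 0.34%, beside an estimated counting error of up to 2.86% of a value. Values of 3 samples can thus lie closer together than such samples vary. The mean rose from 45.2 ± 1.07 to 59.9 ± 0.201 FPKM (SD, n = 3 each), with a log2 fold change of 0.40 (SE 0.04, adjusted p = 0.000267). *Mastl* was the exception among the 10. Its values were 9.43, 8.86 and 8.43 FPKM in the parental line and 8.68, 8.38 and 9.14 FPKM in M8, and the lines overlapped. Its mean was 8.91 ± 0.502 FPKM in the parental line and 8.74 ± 0.383 FPKM in M8, a log2 difference of -0.025 (SE 0.06, adjusted p = 0.79) with a 95% interval from -0.16 to 0.11. The lower bounds of the intervals of 6 of the other 9 genes (*Aurka*, *Aurkb*, *Plk1*, *Bub1b*, *Nek2* and *Cdk1*) were above that upper bound, whereas the intervals of *Plk4*, *Bub1* and *Ttk* overlapped with it. *Mastl* was also the least expressed of the 10, and *Yme1l1*, which overlaps its 5′ end on the other strand, stood at 28.6 to 29.9 FPKM in the parental line and 26.1 to 28.5 FPKM in M8.

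The centrosome and spindle kinases held the largest changes. *Aurka*, whose product builds the spindle poles and activates Plk1, was measured at 42.0, 43.0 and 43.8 FPKM in the parental line and at 68.9, 70.3 and 66.0 FPKM in M8. All M8 samples were at least 22.2 FPKM above the parental samples, the widest gap among the 10. Its mean went from 43.0 ± 0.89 to 68.4 ± 2.15 FPKM (SD, n = 3 each), and its adjusted p was 6.07e-05. By fold change it was number 40 of the 10597 genes tested. *Cstf1*, which shares bases with *Aurka*, was at 23.0 to 25.7 FPKM in the parental line and 27.2 to 29.6 FPKM in M8. *Plk1*, which encodes the Polo kinase of mitotic entry, centrosome maturation and cytokinesis, was measured at 38.3, 40.5 and 34.3 FPKM in the parental line and at 67.0, 63.0 and 59.7 FPKM in M8. The lines were separated by 19.2 FPKM, although *Plk1* had the widest relative spread of the 10 within both lines, with coefficients of variation of 8.37% and 5.78%. Its fold change, number 28 of those tested, had a 95% interval from 0.59 to 0.88 on the log2 scale.

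*Nek2*, whose product splits the linked centrosomes at the onset of mitosis, was measured at 25.9, 27.7 and 25.7 FPKM in the parental line and at 38.2, 37.7 and 38.1 FPKM in M8. The M8 samples were again close together and well above the parental ones. Their coefficient of variation was 0.75%, beside an estimated counting error of up to 2.13% of a value. The mean rose from 26.5 ± 1.06 to 38.0 ± 0.286 FPKM (log2 fold change 0.51, SE 0.04, adjusted p = 0.000206). *Plk4*, which encodes the centriole kinase, was measured at 20.9, 20.5 and 22.2 FPKM in the parental line and at 24.9, 24.6 and 24.6 FPKM in M8. The gap between the lines was 2.35 FPKM, and the mean rose from 21.2 ± 0.903 to 24.7 ± 0.183 FPKM (log2 fold change 0.21, SE 0.05, adjusted p = 0.00957).

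Among the kinases of the chromosomes and the checkpoint, *Bub1b* changed most. It was measured at 34.1, 32.4 and 31.8 FPKM in the parental line and at 44.3, 42.7 and 41.0 FPKM in M8, with the lines 6.95 FPKM apart. Its mean rose from 32.7 ± 1.2 to 42.7 ± 1.65 FPKM (log2 fold change 0.37, SE 0.05, adjusted p = 0.000917). *Aurkb*, whose product corrects faulty attachments of chromosomes, was measured at 51.0, 56.0 and 50.7 FPKM in the parental line and at 60.1, 64.4 and 64.1 FPKM in M8. The lines did not overlap, but parental replicate 2 came within 4.11 FPKM of M8. The mean rose from 52.6 ± 2.96 to 62.9 ± 2.4 FPKM (log2 fold change 0.25, SE 0.05, adjusted p = 0.00641).

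*Ttk*, the gene of the kinase at the top of the checkpoint, was measured at 15.1, 14.3 and 13.4 FPKM in the parental line and at 16.3, 16.9 and 16.2 FPKM in M8. The lines were 1.07 FPKM apart, with a log2 fold change of 0.20 (SE 0.06, adjusted p = 0.0275), and the call was lost under upper-quartile scaling (adjusted p = 0.102). *Bub1*, which encodes the kinase that marks centromeric chromatin and recruits checkpoint proteins, was the weakest of the 9 calls. It was measured at 18.3, 20.2 and 17.3 FPKM in the parental line and at 20.5, 21.0 and 22.2 FPKM in M8, so that the highest parental sample was 0.258 FPKM below the lowest of M8. Its log2 fold change was 0.18 (SE 0.06, adjusted p = 0.0546). Without parental replicate 1, parental replicate 3, M8 replicate 2 or M8 replicate 3 the call was lost (highest adjusted p = 0.163), as it was on the TPM scale (adjusted p = 0.134), with upper-quartile scaling (0.171) and with no filter on low values (0.11). The other 8 called genes remained called in 6 of 6 fits that left out a sample.

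**Figure D3:**
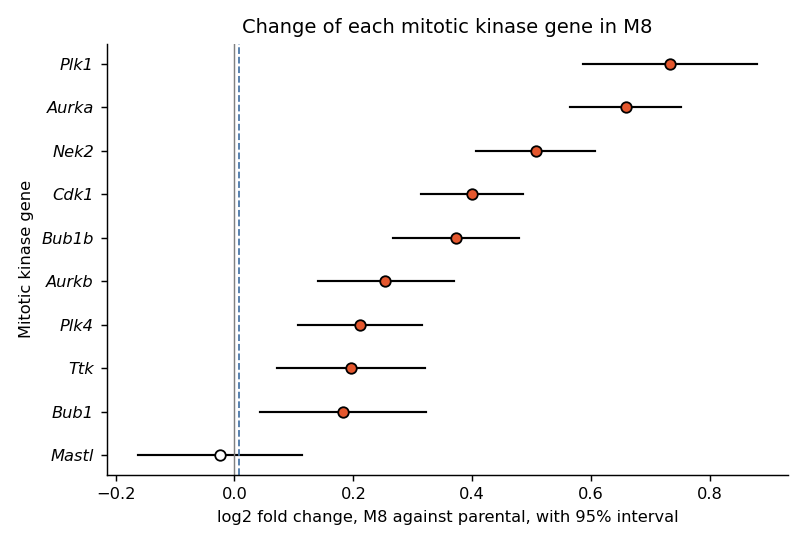
Log2 fold change of each mitotic kinase gene in M8 against the parental line. Points are limma estimates on log2(FPKM + 1), filled where the gene was called, lines are 95% intervals, the dashed line is the median of all genes tested (0.01), and the grey line is 0. The estimates run from 0.73 for *Plk1* to -0.025 for *Mastl*.

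The order of the levels differed at the top. In the parental line it was *Aurkb*, *Cdk1*, *Aurka*, *Plk1*, *Bub1b*, *Nek2*, *Plk4*, *Bub1*, *Ttk* and *Mastl*, from 52.6 to 8.91 FPKM, and the values of neighbouring genes did not overlap. In M8 *Aurka* (68.4 FPKM) and *Plk1* (63.2 FPKM) had moved ahead of *Aurkb* (62.9 FPKM) and *Cdk1* (59.9 FPKM), and each of these 4 overlapped with its neighbour in the order. *Aurka* did not overlap with *Aurkb* or *Cdk1*, its lowest M8 sample (66.0 FPKM) being above the highest of either (64.4 and 60.1 FPKM). The lower 6 genes kept the order of the parental line. The spread within a line was small, with a median coefficient of variation over the 10 genes of 4.94% in the parental line and 3.48% in M8, beside 5.62% and 4.42% over all genes tested. No sample was high or low in all of the kinase genes. The number of the 10 above their line's mean was 4, 6 and 3 in parental replicates 1 to 3 and 5, 4 and 5 in those of M8.

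Because related kinases share an origin but not a task, the ratio within 3 related sets was compared between the lines within each sample. A factor that scales a whole library leaves an FPKM ratio as it is. The differences and tests below are of log2(FPKM + 1) values, so that the added 1 enters, and after quantile normalization the differences for *Plk1* to *Plk4* and *Bub1* to *Bub1b* were 0.48 and -0.15. *Aurka* stood below *Aurkb* in every parental sample, at FPKM ratios of 0.824, 0.769 and 0.863, and above it in every M8 sample, at 1.15, 1.09 and 1.03. The difference in log2 ratio was 0.40 (SE 0.07, 95% interval 0.23 to 0.58). *Plk1* was 1.83, 1.98 and 1.54 times as abundant as *Plk4* in the parental line and 2.69, 2.56 and 2.43 times in M8, a log2 difference of 0.52 (SE 0.11, 95% interval 0.22 to 0.83). In both sets the M8 ratios were all above the parental ratios. The ratio of *Bub1* to *Bub1b* was 0.536, 0.624 and 0.544 in the parental line and 0.461, 0.49 and 0.54 in M8, and these overlapped (log2 difference -0.19, SE 0.09, 95% interval -0.45 to 0.07), with a difference of -0.12 without parental replicate 2. By exact two-sided permutation tests, p was 0.1, 0.1 and 0.2 (Benjamini-Hochberg adjusted over the 3 ratios, 0.15, 0.15 and 0.2). With 3 samples against 3 the smallest p that this test can give is 0.1.

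**Figure D4:**
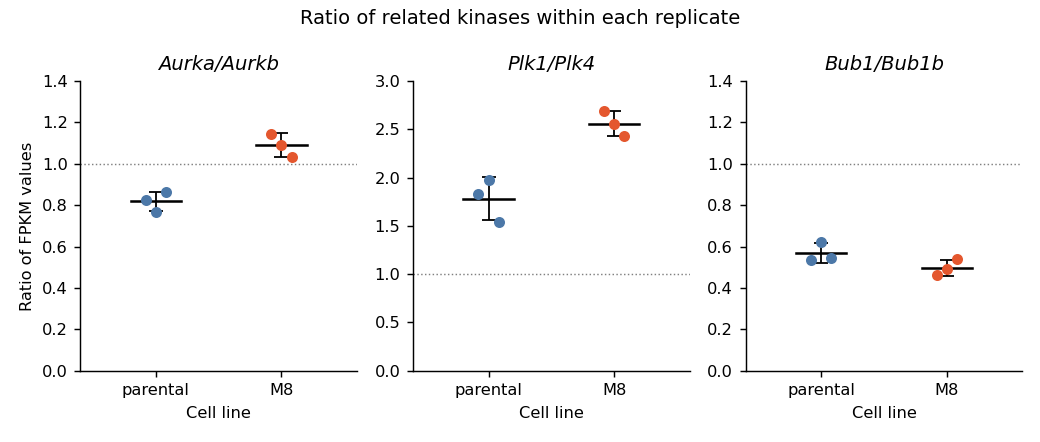
FPKM ratio of related kinases within each sample. The vertical axes are ratios of FPKM values on linear scales that start at 0, points are samples of the parental line (blue) and M8 (red), bars are the mean and SD of 3 samples, and the dotted line is a ratio of 1. *Aurka* crosses from below to above *Aurkb*, the *Plk1* to *Plk4* ratio is higher in M8, and the *Bub1* to *Bub1b* ratio overlaps between the lines.

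The genes that work with these kinases were taken from lists grouped by role. The lists were also written with earlier results of these data known, so their counts are descriptions. Of 13 genes for the cyclins, subunits and switch enzymes of Cdk1, 8 were called higher and 1 lower (3 lower with upper-quartile scaling), beside 21.2% and 16.5% of all genes tested, with a median log2 fold change of 0.22. *Ccnb1* and *Ccna2*, the cyclins that activate Cdk1 in mitosis and in G2, rose by 0.64 and 0.52 on the log2 scale. *Ccnb1* was at 36.4 to 42.3 FPKM in the parental line and 60.6 to 65.1 FPKM in M8. For *Ccna2* these were 55.4 to 58.1 FPKM and 80.0 to 83.7 FPKM. *Cks2*, a small Cdk-binding subunit, rose by 0.46. *Pkmyt1*, whose product inhibits Cdk1, was the gene called lower, at 19.3 to 20.5 FPKM in the parental line and 16.4 to 18.0 FPKM in M8 (log2 fold change -0.21, adjusted p = 0.0176). The subunits of the Cdk-activating kinase, *Cdk7*, *Ccnh* and *Mnat1*, were not called.

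Of 14 activators and scaffolds of the Aurora and Polo kinases, 9 were called higher and 1 lower, beside 21.2% and 16.5% of all genes tested (median log2 fold change 0.30). *Cdca8*, a subunit of the passenger complex that holds Aurkb, rose by 0.49, *Ect2*, an exchange factor that Plk1 directs in cytokinesis, by 0.47, and *Ajuba*, an activator of Aurka, by 0.45. The other passenger subunits, *Incenp* and *Birc5*, rose by 0.42 and 0.39, and *Tpx2*, which binds and activates Aurka on the spindle, by 0.36. These changes of the passenger subunits were each larger than that of *Aurkb* itself (0.25), a difference between genes that was not tested. Of the genes in the list that act with Plk4 in centriole assembly, *Cep192* was called higher (0.14, adjusted p = 0.0819), *Cep152*, *Stil* and *Sass6* were not called, with log2 differences of -0.06, 0.07 and 0.10 (SE 0.09, 0.07 and 0.07), and *Cenpj* was called lower (3.58 to 4.5 FPKM against 2.88 to 3.35 FPKM, log2 fold change -0.27, adjusted p = 0.0549). That call was lost without parental replicate 1 or M8 replicate 1, with no filter on low values and after quantile normalization (highest adjusted p over all alternatives 0.172).

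Of 14 partners of the spindle checkpoint kinases, 9 were called higher and 0 lower, beside 21.2% and 16.5% of all genes tested, and 0 were lower at an unadjusted limma p below 0.05 (median log2 fold change 0.19). *Cdc20*, the target that the checkpoint holds inactive, went from 57.1 to 66.7 FPKM in the parental line to 93.7 to 105 FPKM in M8 (log2 fold change 0.66, adjusted p = 0.000261). *Sgo1*, listed under the older symbol *Sgol1* and known for protecting centromeric cohesion downstream of Bub1, rose by 0.40, and *Mad1l1*, the scaffold for Mad2 at kinetochores, by 0.28. *Bub3*, which binds the products of both *Bub1* and *Bub1b*, rose by 0.26. The subunits of the RZZ complex, *Zw10*, *Kntc1* and *Zwilch*, were not called.

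Of 21 genes of the Greatwall arm around *Mastl* and the phosphatases that oppose Cdk1, 4 were called higher and 2 lower, beside 21.2% and 16.5% of all genes tested. Their median log2 fold change of 0.07 became -0.009 after quantile normalization, 0.004 with upper-quartile scaling and 0.038 without M8 replicate 1. The substrates of Mastl, *Ensa* and *Arpp19*, were not called, at 97.6 to 104 FPKM against 103 to 108 FPKM and at 22.9 to 24.1 FPKM against 21.5 to 22.8 FPKM. *Cdca2*, which brings the phosphatase PP1 to chromatin at the end of mitosis, rose by 0.31, *Ppp1ca*, a catalytic subunit, by 0.26, and *Ppp1r7*, a regulator, by 0.19, of which the last was lost without M8 replicate 1 and with upper-quartile scaling (highest adjusted p = 0.135). *Ppp2r5b* and *Ppp1cb* were called lower, by -0.15 each on the log2 scale, and both calls were lost without M8 replicate 3. The count of 2 became 1 when parental replicate 2, parental replicate 3, M8 replicate 1 or M8 replicate 2 was left out instead.

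**Figure D5:**
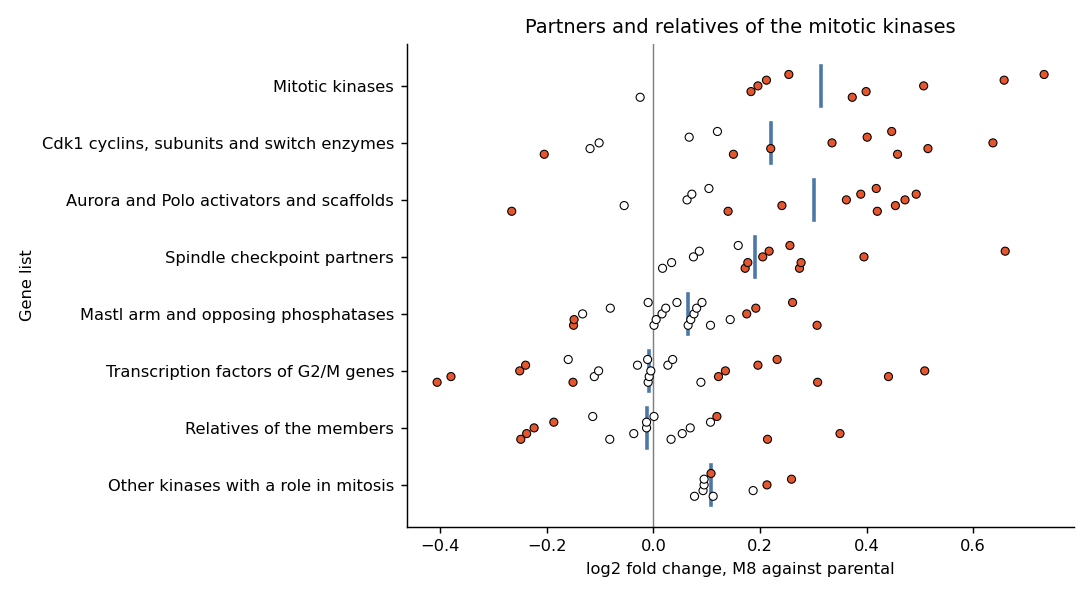
Log2 fold change in M8 against the parental line for the mitotic kinase genes and 7 lists of related genes. Points are genes, filled where called at an adjusted p below 0.1, and blue bars are medians. The medians of the kinases and of the lists of their cyclins, activators and checkpoint partners lie between 0.19 and 0.31, and those of the Mastl arm, the transcription factors and the relatives between -0.01 and 0.07, with that of the other kinases with a role in mitosis at 0.11.

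Of 23 transcription factor genes that act on genes of G2 and mitosis, 7 were called higher and 5 lower, beside 21.2% and 16.5% of all genes tested. Their median log2 fold change of -0.01 had no stable sign, at -0.033 without parental replicate 1, 0.007 without parental replicate 3, 0.002 without M8 replicate 2, 0.017 after quantile normalization and 0.011 with a correction for GC content and length. *Foxm1*, the activator that binds late cell cycle promoters, was at 65.0 to 66.1 FPKM in the parental line and 89.5 to 97.2 FPKM in M8 (log2 fold change 0.51, adjusted p = 0.000163). *Mybl2* rose by 0.20. The subunits of NF-Y, the CCAAT-binding factor, went in different directions: *Nfyc* rose by 0.44, *Nfyb* was lower (-0.25, adjusted p = 0.00791) and *Nfya* was not called. *Rb1* and *Tfdp2* were lower (-0.41 and -0.38), as was *E2f1* (-0.15, adjusted p = 0.0595). The subunits of the repressive DREAM complex in the list were mixed. *E2f4* was higher (0.31, adjusted p = 0.000857), as was *Tfdp1* (0.12, adjusted p = 0.0435), the pocket protein *Rbl2* was lower (-0.24) and *Rbl1* was not called. Its core subunits *Lin9*, *Lin37*, *Lin52*, *Lin54* and *Rbbp4* were not called. Of these named genes, *Mybl2*, *Nfya*, *E2f1* and the DREAM subunits other than *Tfdp2* were chosen after their values were seen, as were *Cdk7*, *Ccnh*, *Mnat1*, *Incenp*, *Birc5*, *Tpx2*, *Cep192*, *Cep152*, *Stil*, *Sass6*, *Bub3*, the RZZ subunits, *Ensa* and *Arpp19* in the lists above.

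The relatives of the 10 kinases by gene family included *Plk2*, *Plk3*, *Cdk2*, *Cdk4* and the other *Nek* and *Mast* genes. Of 22, 17 were expressed at a mean of at least 1 FPKM, and 3 of these were called higher and 4 lower, again beside 21.2% and 16.5% of all genes tested. Their median of -0.013 turned to 0.005 without parental replicate 2, 0.015 after quantile normalization, 0.017 at a mean of at least 5 FPKM and 0.009 with the correction for GC content and length, and was -0.059 with upper-quartile scaling. *Cdk4*, a kinase of G1, rose by 0.35. *Nek6*, which has a part in spindle assembly, rose by 0.21. *Mast2* (0.12) was the weakest of these calls and was lost under 6 alternatives (highest adjusted p = 0.328). *Plk2*, the Polo kinase induced by stress, went from 114 to 129 FPKM in the parental line to 98.0 to 104 FPKM in M8 (log2 fold change -0.24), the opposite direction to *Plk1*, and *Mast3* was lower by -0.25. *Aurkc*, *Plk5*, *Nek5*, *Nek10* and *Nek11* stayed below 1 FPKM and were not tested. Of 9 further kinases with a role in mitosis, 3 were called higher and 0 lower, beside 21.2% and 16.5% of all genes tested, and 0 were lower at an unadjusted limma p below 0.05 (median log2 fold change 0.11, and 0.05 with upper-quartile scaling). *Tlk2* rose by 0.26, *Cit*, the kinase of cytokinesis, by 0.21 and *Pbk* by 0.11. The call of *Pbk* was lost in 10 of 17 alternatives (highest adjusted p = 0.577), among them the TPM, upper-quartile and quantile scalings, the replicate block and 5 of the 6 fits that left out a sample. The call of *Cit* was lost on the TPM scale, with upper-quartile scaling and without parental replicate 3 or M8 replicate 1 (highest adjusted p = 0.143), and in each of these 4 the count was 1.

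Outside the kinases, the 5 genes whose values over the 6 samples ran closest to the mean profile of the 10 were *Styk1*, *Ran*, *Fam206a*, *Ncapd2* and *Rbm14*, at root mean square distances of 0.015 to 0.0195 on the log2 scale among 8292 genes compared (median distance 0.176). The likeness rests on 6 samples in 2 lines, and the rise of these genes in M8 follows from how they were chosen. *Ncapd2*, a condensin subunit, was at 34.6 to 36.4 FPKM in the parental line and 44.5 to 46.4 FPKM in M8, and *Ran*, the GTPase of nuclear transport and spindle assembly, at 413 to 434 FPKM and 539 to 560 FPKM.

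The libraries were alike, with correlations across genes of log2(FPKM + 1) of 0.9978 to 0.9983 within a line and 0.9964 to 0.9973 between lines. Depth was estimated from the steps that single reads leave in the FPKM of low genes, since read totals were not used here, and in mapped reads, given in units of 1e6, it was 23.8 to 26.9 for the parental samples and 19.4 to 22.0 for M8. The M8 libraries were thus all shallower, and the part of this in the results was not tested. Each of the 10 kinases had at least an estimated 830 reads in every sample, so that counting error was at most 3.47% of a value. *Mr1* was at 1050 to 1140 FPKM in the parental line and 1030 to 1090 FPKM in M8. Although the label gives colon, 5 of 11 colon epithelial markers, *Epcam*, *Krt19*, *Cdh1*, *Cdx2* and *Lgr5*, were listed at 0 in all samples and only *Krt18* and *Krt20* reached 1 FPKM. The epithelial sum was 39.7 to 56.4 FPKM in the parental line and 47.5 to 49.4 FPKM in M8, and *Krt20* was lower in M8 (log2 fold change -0.50). Of 5 mesenchymal markers 4 were expressed, with sums of 2340 to 2750 and 2550 to 2650 FPKM and *Pdgfrb* higher in M8 (0.25). Markers of leukocytes (0 of 5) and endothelium (0 of 3) did not reach 1 FPKM, at sums of at most 0.0497 and 0.0524 FPKM. Of 2 general markers of dividing cells, chosen after their values were seen, *Mki67* was higher in M8 (34.1 to 37.0 FPKM against 39.2 to 43.6 FPKM, log2 fold change 0.21, adjusted p = 0.0171), and *Pcna*, which serves DNA replication, was not called (231 to 243 FPKM against 226 to 240 FPKM). The part of these markers in the change of the kinase genes was not tested.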

How the data were processed

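Poly(A)-selected RNA of 3 parental and 3 M8 samples was sequenced by the authors as 101-base reads from stranded libraries. The authors deposited FPKM per gene symbol for each sample, aligned to mm10. The submitters' processing notes name TopHat2 2.1.1, Bowtie2 2.2.8, SAMtools 0.1.18 and Cuffdiff 2.2.1. The annotation, strand setting and filters are not given in the sources used here. Groups and replicate numbers were taken from the sample titles.

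FPKM values were transformed to log2(FPKM + 1), and genes with a mean of at least 1 FPKM were tested with limma 3.58.1 (R 4.3.3; empirical Bayes with a trend) on the 6 samples. Calls were made at a Benjamini-Hochberg adjusted p below 0.1, with no minimum fold change. A fold change on this scale understates that of low genes. Ratios were tested by exact permutation (scipy 1.17.1). The fit was tested on simulated data in which 10397 of the 10597 genes were unchanged. It called 40.3% of genes changed 1.2-fold, 89.6% of those changed 1.5-fold and 0.1% of the unchanged ones. Many small changes were thus not called. In the real samples 37.7% of genes were called, so the simulated shares may not hold for them. Alternatives were the pseudocount, filter, scaling, trend, threshold, replicate block and leaving out each sample, and, chosen after seeing the data, a correction for GC content and length.

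The kinases and gene lists were chosen with earlier results of these data known. Named in each list were the 3 called genes of largest change and at most 3 called against the majority, and the 5 genes of most similar profile with at least 5 FPKM, predicted genes left out.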

Additional observations from a re-analysis of the deposited data

How the results depend on the processing

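The median log2 fold change of the 10 kinase genes was 0.31 and ranged from 0.299 to 0.332 when each sample was left out in turn, and it was 0.253 under upper-quartile scaling. The count called higher was 9, 8 or 9 without a sample, and 2 with a fold change of at least 1.5. The count called lower was 0 in every alternative run. *Mastl* was not called in any, and its sign turned without parental replicate 1 (0.013), without M8 replicate 2 (0.001) and with the correction for GC content and length (0.019), with a range of -0.06 to 0.013 over left-out samples. Over all genes, 2250 were called higher and 1745 lower (56.3% higher). These became 1658 and 2209 on the TPM scale (42.9%), 1470 and 2769 with upper-quartile scaling (34.7%), and 42 and 74 at a fold change of at least 1.5. Leaving out a sample gave 1591 to 2100 higher and 1142 to 1681 lower, the fewest lower without M8 replicate 1. On the TPM scale 8 kinase genes and with upper-quartile scaling 7 were called higher. The median of the Mastl arm was -0.009 after quantile normalization, 0.004 with upper-quartile scaling and 0.038 without M8 replicate 1. The cause was not tested. Samples of the same replicate number did not deviate together (correlations 0.1, -0.106 and -0.033), so the numbers were not taken as a pairing. With the replicate block 9 kinase genes, 2171 genes in all higher and 1688 lower were called. Depth was only estimated from the values, which limits what can be said of counting error, most for *Ttk* and *Mastl*, the kinase genes with the fewest estimated reads.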
